A study of Rattus norvegicus with 47 samples.

Results

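The hippocampus and the cortex of the side opposite a brain injury were compared in rats 4 h after the injury, across all gene probe sets of the array. The groups were chosen by the side, region and hours in the sample labels, which gave 9 arrays of contralateral hippocampus and 8 arrays of contralateral cortex, 17 of the 47 arrays of the series. The label "HC" was taken to mean hippocampus. The remaining arrays are ipsilateral hippocampus at 4 h (7), ipsilateral cortex at 4 h (7), contralateral cortex at 24 h (8) and ipsilateral cortex at 24 h (8). Total RNA was extracted with Trizol and hybridised to oligonucleotide arrays of 8799 probe sets. The labels give the hours after injury for every array, also on the contralateral side. The labels used here name neither strain, age and sex nor the kind of injury, and none separates operated from uninjured animals, so both groups may carry effects of the injury on the opposite side. Whether each array stands for its own animal is not stated, so the p-values rest on a spread between samples that may be only technical.

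The hippocampus holds the densely packed granule cells of the dentate gyrus and the pyramidal cells of Ammon's horn, while the cortex is layered, with pyramidal neurons and a wider range of interneuron classes. Hippocampal neurons are known for high levels of the mineralocorticoid receptor and of particular glutamate and GABA receptor subunits. Dissected pieces of either region can also carry neighbouring tissue, such as choroid plexus from the ventricles, striatum below the cortex, or thalamus below the hippocampus. In RNA from whole tissue, fewer cells of a type and less RNA per cell cannot be told apart.

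Of 7503 probe sets tested, 2530 differed between hippocampus and cortex at a limma adjusted p under 0.05, which is 33.7% of those tested. They name 1709 genes. In the hippocampus 1676 were higher (22.3%) and 854 lower (11.4%). Levels are log2 of the deposited signal, raised where needed to a floor of 7.54, and every difference is hippocampus minus cortex in log2 units. The differences ran between 2.80 and -2.93, and 278 of the called probe sets (3.71% of those tested) differed by at least 2-fold, 177 of them higher and 101 lower. The values of the 2 groups did not overlap at all for 428 probe sets (5.7%), of which 196 were higher (2.61%) and 232 lower (3.09%). The median difference over all probe sets was 0.11. The balance of higher to lower calls rests on the scaling of the arrays: 66.2% of the calls were higher with the deposited scaling, 49.3% after quantile normalization and 28.5% with each array centred on its median. Genes are therefore described below by their own sizes, and each list of genes by its counts and median under the deposited scaling, with its counts under the other scalings beside them. Over all 4242 genes, each given by its brightest probe set, 23.2% were higher and 11.6% lower with the deposited scaling (34.8% passed), 13.4% higher and 14.6% lower after quantile normalization, and 9.38% higher and 24.8% lower with median centring. The median of all genes was 0.12, 0.02 and -0.09 in these 3 scalings, and a list near those shares or medians does not stand apart.

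**Figure D1:**
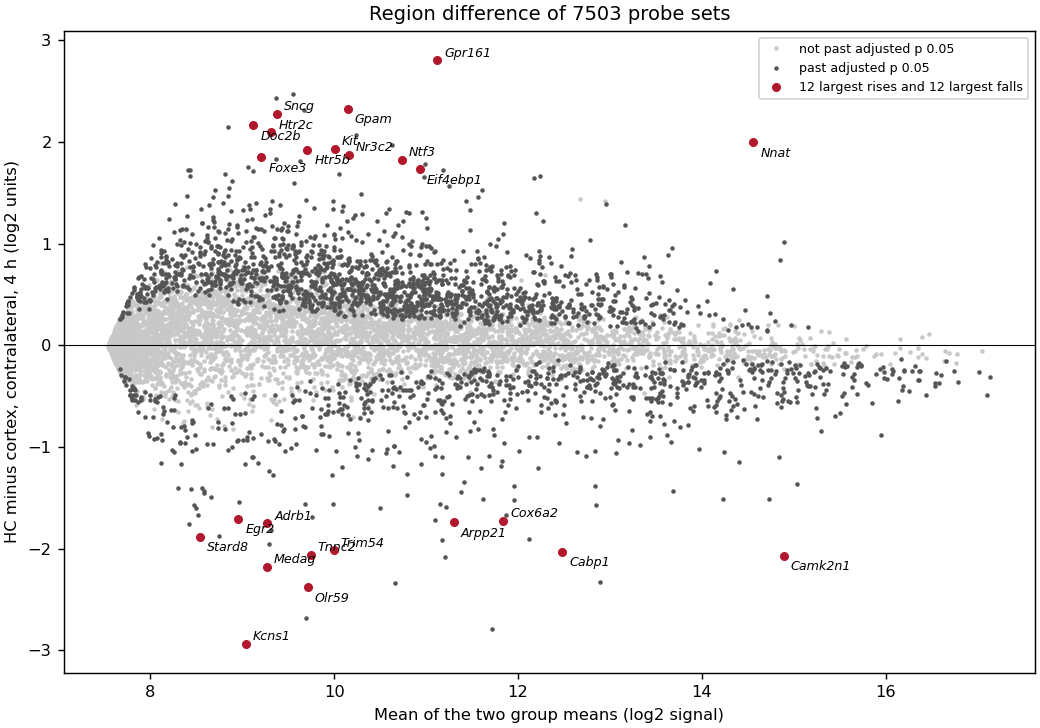
Each point is a probe set, with the mean of both groups on the x axis and hippocampus minus cortex on the y axis, both in log2 units. Dark points passed the limma adjusted p of 0.05, and the 12 largest rises and 12 largest falls of named genes are in red, from Gpr161 at 2.80 to Kcns1 at -2.93.

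The arrays of the 2 regions also differed in quality measures. The median signal was 841 ± 30 in hippocampus and 713 ± 71 in cortex (SD, n = 9 and 8, exact two-sided permutation p = 0.000123, adjusted 0.000308 over 5 measures). The bacterial spike-in controls lay between 11.80 and 12.30 log2 units in hippocampus and between 12.81 and 13.45 in cortex, without overlap (exact permutation p = 4.11e-05, the smallest that 9 against 8 arrays can give). On the ipsilateral side they lay between 11.76 and 12.34 in hippocampus and between 12.78 and 13.64 in cortex at 4 h, while contralateral cortex at 24 h had 11.96 to 12.58. Region and the conditions behind the spike-in level cannot be told apart at 4 h. The Gapdh 3-prime to 5-prime ratio was 1.09 in hippocampus and 1.21 in cortex (exact permutation p = 0.000247, adjusted 0.000309). The same ratio of beta-actin differed more, at 1.23 and 1.51 (exact permutation p = 0.000206, adjusted 0.000309). The 10th percentile of signal did not pass (exact permutation p = 0.279). Hippocampus array 23 had the highest 10th percentile of signal, 99.5 against 46.1 to 76.8 on the other 8. Its number stands apart from 25 to 32 and falls among those of ipsilateral hippocampus, 17 to 22 and 24. It was kept as labelled, and whether the side on its label is right was not tested. Without it 2480 probe sets passed. Pearson's r between arrays had a median of 0.965 within hippocampus, 0.959 within cortex and 0.946 between the regions, across probe sets, which are not independent replicates.

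Genes listed as markers of each region mostly differed in the direction of their list. Of 15 measured hippocampus-enriched genes, 11 were higher in the hippocampus, 1 was lower and 3 did not pass, with a median difference of 1.57, where 34.8% of all genes passed. Of 15 measured cortex-enriched genes, 11 were lower, 1 was higher and 3 did not pass, with a median of -1.03. After quantile normalization and with median centring 11 and 9 of the hippocampal genes were higher, and 13 of the cortical genes were lower in both. These lists hold genes known from earlier results on these arrays, so their counts describe the samples and are no independent evidence. The lower hippocampal marker was Calb1 (-0.32), the calcium buffer calbindin, and the higher cortical marker was Nr4a2 (0.67), an orphan nuclear receptor.

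Gpr161, a receptor of the primary cilium that restrains hedgehog signalling, showed the largest rise. Its level on the hippocampal arrays was 12.28 at the lowest, 12.42 at the median and 12.89 at the highest, against 9.23, 9.73 and 10.06 in cortex. The difference was 2.80 (SE 0.13, limma adjusted p = 1.56e-22). Every hippocampal array lay above every cortical one, and the ipsilateral arrays, which are other samples, gave 3.08.

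Neurod1, a basic helix-loop-helix factor of the granule cell lineage, ran from 11.45 over a median of 11.78 to 12.32 in hippocampus, and from 9.82 over 10.18 to 10.32 in cortex. It was 1.66 higher (SE 0.13, limma adjusted p = 1.39e-14), without overlap, and both of its probe sets passed. Nr3c2, the mineralocorticoid receptor, had a lowest, median and highest level of 10.71, 11.05 and 11.80 in hippocampus and of 8.58, 9.26 and 9.71 in cortex. That is a difference of 1.88 (SE 0.14), and the top value, on array 28, stood apart from the other hippocampal arrays, whose highest was 11.18. The related glucocorticoid receptor Nr3c1 differed by 0.08 and did not pass. Ntf3, the neurotrophin that binds TrkC, measured 11.32, 11.58 and 11.90 in hippocampus and 8.19, 10.10 and 10.79 in cortex (difference 1.82, SE 0.21), again with every hippocampal array above the cortical ones. Among the other genes of the hippocampal list Sncg, gamma-synuclein, was 2.28 higher (SE 0.48), but its hippocampal arrays ran from the floor at 7.54 to 12.25 and overlapped with cortex. Doc2b, a calcium sensor of vesicle fusion, was 2.17 higher (SE 0.24), with 9.52 to 10.54 in hippocampus and 7.54 to 9.24 in cortex.

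Other large rises fell outside the marker lists. Nnat, which encodes the small membrane protein neuronatin and is imprinted, was among the brightest, at 15.32 to 15.66 in hippocampus and 13.24 to 13.80 in cortex (difference 2.0, SE 0.09). Kit, the receptor of stem cell factor, was 1.94 higher (SE 0.15) and did not overlap, with 10.52 to 11.49 in hippocampus and 8.71 to 9.49 in cortex. Gpam, a mitochondrial enzyme that starts glycerolipid synthesis, was 2.33 higher (SE 0.31). Only 6 of 8 cortical arrays were above the floor for it, so its difference is partly set by the floor. Its other 4 probe sets gave 0.78, 0.62, 0.37 and 0.35, and the 2 smallest did not pass. On the ipsilateral side the first probe set gave 1.01. On that probe set contralateral cortex at 24 h had 10.675 to 11.48, beside 11.03 to 11.62 in contralateral hippocampus at 4 h. The low cortical level is thus that of the 4 h arrays, and its cause was not tested.

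**Figure D2:**
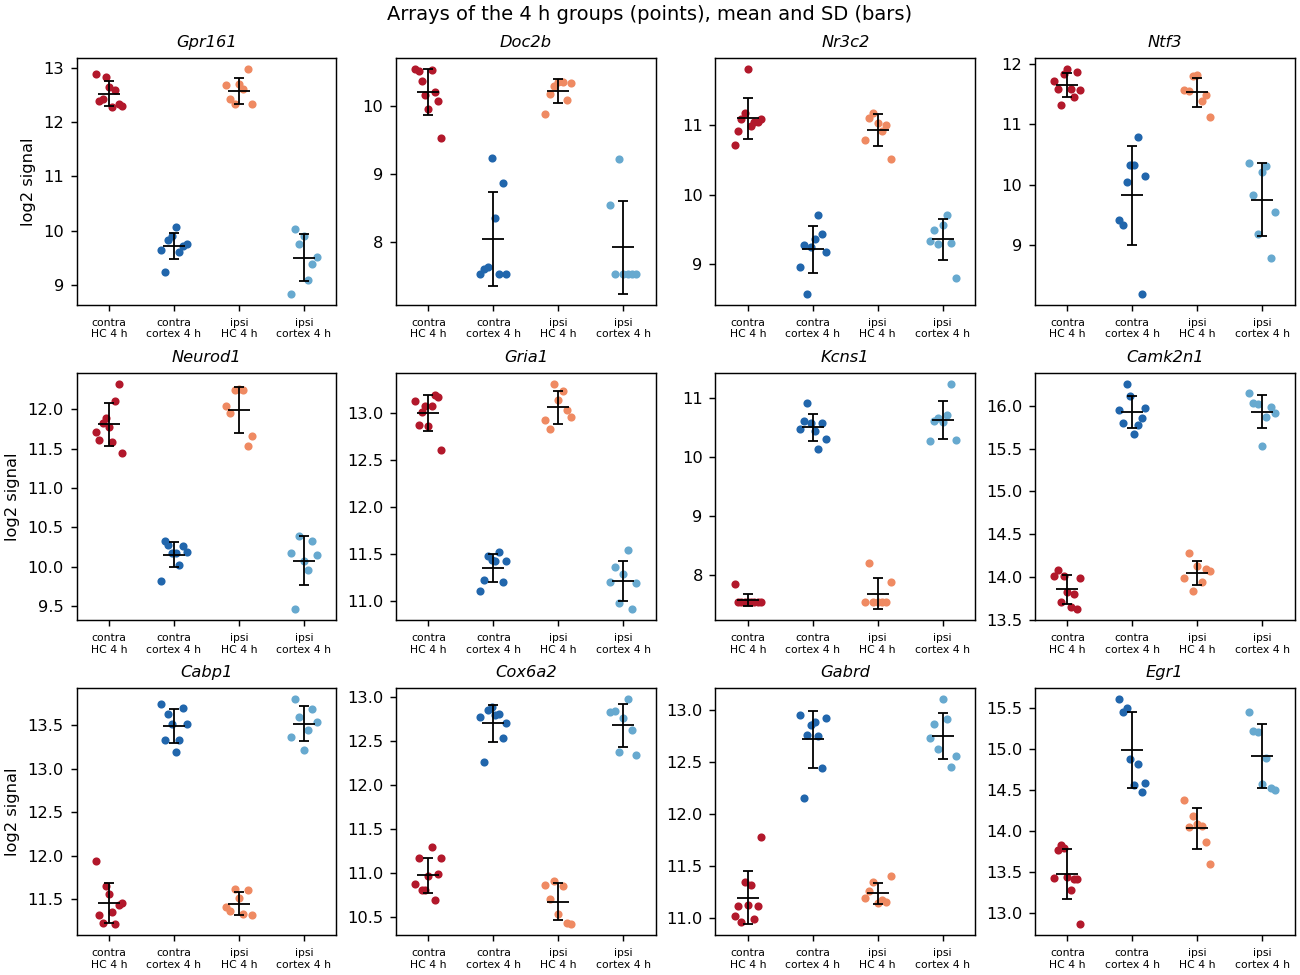
Each panel is a gene, with log2 signal per array as points and the group mean with its SD as black bars, for hippocampus and cortex of the contralateral and then the ipsilateral side at 4 h. The first 6 genes are higher in hippocampus and the last 6 lower, and on the contralateral side none of the 12 overlaps between the regions.

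Kcns1, a potassium channel subunit that is silent on its own and modifies other channels, fell most. It was at the floor of 7.54 on 8 of 9 hippocampal arrays, with 7.84 on array 23, while cortex ran from 10.13 over a median of 10.53 to 10.92. The difference of -2.93 (SE 0.13, limma adjusted p = 1.82e-23) is measured against the floor and understates any larger one. Stard8, which encodes a protein with a lipid-binding domain, showed the same picture, with 1 of 9 hippocampal arrays above the floor and 8.95 to 9.96 in cortex (difference -1.88).

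Camk2n1, an inhibitor of calcium/calmodulin-dependent kinase II, fell at a high signal, where the floor plays no part. Its hippocampal levels were 13.62, 13.83 and 14.08 at the lowest, median and highest array, and its cortical levels 15.67, 15.91 and 16.25 (difference -2.07, SE 0.09, limma adjusted p = 7.81e-25). Cabp1, a calmodulin-like calcium-binding protein of dendrites, measured 11.21, 11.43 and 11.94 in hippocampus and 13.19, 13.51 and 13.74 in cortex (difference -2.03, SE 0.10). Neither gene overlapped between the regions, and both probe sets of each passed. Adrb1, the beta-1 adrenergic receptor, was 1.75 log2 units below cortex (-1.75, SE 0.21). Arpp21, a phosphoprotein regulated by cyclic AMP, was lower by a similar amount (-1.74, SE 0.10).

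Among the 12 largest falls were several genes known mainly from other tissues. Tnnc2, troponin C of fast skeletal muscle, differed by -2.06 (SE 0.17) and Trim54, a muscle ring finger protein, by -2.01 (SE 0.24). Cox6a2, the heart and muscle form of a cytochrome c oxidase subunit, ran from 10.70 to 11.30 in hippocampus and from 12.26 to 12.89 in cortex (difference -1.73, SE 0.10). The olfactory receptor Olr59 (-2.38, SE 0.18) and Medag, named for adipogenesis (-2.17, SE 0.22), completed this set. For each of these 5 genes the 2 regions were apart on every array.

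Activity-regulated genes, which neurons transcribe within minutes of calcium entry, went in both directions. Of 25 measured, 9 were lower, 3 higher and 13 did not pass, with a median of -0.20 beside 0.12 for all genes. After quantile normalization 11 were lower and 3 higher, and with median centring 12 and 3, where 14.6% and 24.8% of all genes were lower. Egr1, a zinc finger factor, had 12.86 at the lowest, 13.43 at the median and 13.83 at the highest hippocampal array, against 14.47, 14.85 and 15.60 in cortex. The groups did not overlap, the difference was -1.51 (SE 0.15, limma adjusted p = 1.53e-11), and all 4 of its probe sets were lower. Dusp1, a phosphatase that switches off MAP kinases, was lower by -1.56 (SE 0.18), with 9.21 to 10.97 in hippocampus and 11.41 to 12.70 in cortex. Egr2, a zinc finger factor like Egr1, was at -1.71 (SE 0.28) and overlapped between the groups, with 7 of 9 hippocampal arrays above the floor. Nr4a1, an orphan nuclear receptor, was at -1.20 (SE 0.24). Arc (-0.93), which shapes synapses, and Fos (-0.46) were lower too. The 3 that were higher were Nr4a3 (1.19), Dusp5 (0.92) and Nr4a2 (0.67). Both groups are labelled 4 h after injury and no uninjured group was used, so a resting difference between regions and a difference in the response cannot be told apart here.

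Promoter sequences are shown for 5 genes with large differences, chosen after their values were seen, 3 of them activity-regulated. Windows of further genes were searched and are not shown. Each is the 250 bases before the start that RefSeq annotates in build GRCr8, 5′ to 3′ on the gene's strand, with a CArG box (the serum response element core) or the cyclic AMP response element TGACGTCA in capitals. They lie at chr18:26736828-26737077 on the plus strand (Egr1), chr20:21054442-21054691 on the minus strand (Egr2), chr10:17184603-17184852 on the plus strand (Dusp1), chr3:84770455-84770704 on the minus strand (Neurod1) and chr3:173262347-173262596 on the minus strand (Kcns1).
Egr1: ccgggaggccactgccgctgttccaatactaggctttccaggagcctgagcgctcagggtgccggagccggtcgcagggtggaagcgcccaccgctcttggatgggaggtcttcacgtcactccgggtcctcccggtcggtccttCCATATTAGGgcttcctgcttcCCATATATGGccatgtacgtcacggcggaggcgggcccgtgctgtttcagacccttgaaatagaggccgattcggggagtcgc
Egr2: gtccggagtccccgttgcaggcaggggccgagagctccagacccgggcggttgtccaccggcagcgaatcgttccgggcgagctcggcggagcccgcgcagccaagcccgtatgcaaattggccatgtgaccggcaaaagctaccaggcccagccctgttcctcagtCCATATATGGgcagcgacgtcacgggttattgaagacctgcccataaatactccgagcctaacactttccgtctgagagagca
Dusp1: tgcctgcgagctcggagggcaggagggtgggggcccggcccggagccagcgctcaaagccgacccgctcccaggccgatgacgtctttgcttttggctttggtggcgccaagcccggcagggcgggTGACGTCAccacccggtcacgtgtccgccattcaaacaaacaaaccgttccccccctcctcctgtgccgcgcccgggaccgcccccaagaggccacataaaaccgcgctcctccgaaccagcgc
Neurod1: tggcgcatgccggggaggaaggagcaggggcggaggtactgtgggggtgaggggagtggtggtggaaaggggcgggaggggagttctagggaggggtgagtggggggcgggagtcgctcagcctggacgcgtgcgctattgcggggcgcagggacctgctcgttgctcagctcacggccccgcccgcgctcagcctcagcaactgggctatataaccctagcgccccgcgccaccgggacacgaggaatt
Kcns1: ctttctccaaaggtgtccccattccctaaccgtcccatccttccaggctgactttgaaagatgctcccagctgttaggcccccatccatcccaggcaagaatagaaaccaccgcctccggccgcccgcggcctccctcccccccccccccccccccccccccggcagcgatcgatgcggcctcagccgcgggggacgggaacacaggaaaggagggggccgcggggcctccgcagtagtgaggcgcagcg

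In the Egr1 window, CArG boxes spanned bases -105 to -96 (CCATATTAGG) and -83 to -74 (CCATATATGG), counted back from the start. The same letters as the second stood at -83 to -74 of Egr2, and Dusp1 held TGACGTCA at -124 to -117. The window of Nr4a1, also activity-regulated and lower, was searched too and held neither motif. Of 45 genes at least 2-fold lower, 2 (4.44%) held a CArG box and 2 (4.44%) TGACGTCA. Of 65 genes at least 2-fold higher the counts were 1 and 1, and of 3362 other genes the shares were 1.55% and 2.44%. The 2 lower genes with a CArG box are Egr1 and Egr2, and Dusp1 is 1 of the 2 with TGACGTCA. The shares of the lower genes thus count the printed genes again. Searched on both strands, the CArG box occurred in 1.5% of 27457 rat promoters of this length and TGACGTCA in 1.7%. Also searched were CAGATG (13.7%), GCGTGGGCG (0.514%) and CANNTG (65.2%), the last of which contains the first. Among the lower, higher and other genes, in this order, CAGATG was held by 17.8%, 9.23% and 10.6%. GCGTGGGCG was held by 0.0%, 1.54% and 0.833%, and CANNTG by 64.4%, 58.5% and 57.9%. The shares were not compared in a test. A match describes letters in a window and was not tested as a site.

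Receptors and channels split by subunit. Gria1, the AMPA receptor subunit of hippocampal plasticity, measured 12.60, 13.07 and 13.19 at the lowest, median and highest hippocampal array and 11.11, 11.42 and 11.52 in cortex (difference 1.65, SE 0.09, limma adjusted p = 3.72e-20). All 3 of its probe sets were higher. Among 10 AMPA and kainate subunit genes, given by their brightest probe sets, 2 were higher and 1 lower. The others were the kainate subunits Grik4 (0.55) and Grik5 (-0.38), and Gria3 (-0.21) did not pass. For Gria2 a dimmer probe set was higher (0.61, SE 0.11) while the brightest was at 0.08. For Gria4 a dimmer one was lower (-0.53, SE 0.21), the brightest at -0.33, and this call was lost under 16 of 29 alternatives. The list's median was 0.01, 2 were higher and 3 lower after quantile normalization, and 1 and 3 with median centring, where Grik4 lost its call (limma adjusted p = 0.0552). Of 7 NMDA receptor genes, given by their brightest probe sets, 1 passed (median 0.08), namely Grin2d (0.30), and it did not hold under quantile normalization (limma adjusted p = 0.554). A dimmer probe set passed for 3 more. For Grin1 it was lower (-0.57, SE 0.14) while the brightest was at 0.01, and for Grin2c it was lower (-0.51, SE 0.14) while the brightest was at 0.08. For Grin3a it was higher (0.44, SE 0.16), the brightest at -0.37, and this call was lost under quantile normalization (limma adjusted p = 0.307).

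GABA receptor genes went in both directions. Gabra5, the subunit of tonic inhibition in pyramidal cells, ran from 11.72 over 11.97 to 12.41 in hippocampus and from 10.02 over 10.49 to 10.91 in cortex (difference 1.57, SE 0.14). Gabrd, the extrasynaptic delta subunit, ran from 10.96 over 11.11 to 11.78 in hippocampus and from 12.16 over 12.81 to 12.95 in cortex (difference -1.52, SE 0.12). Neither overlapped. Of 17 genes for GABA receptors, synthesis and transport 7 were higher and 4 lower, with a median of 0.22. The counts were 6 and 5 after quantile normalization and 4 and 6 with median centring, with a median of 0.00 in both. Gabra2 (0.74) and Gabrg1 (0.84) were higher, Gabrb2 (-0.80, by 1 of 2 probe sets) and Gabbr2 (-0.65) lower.

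Serotonin receptors made up much of the monoamine and acetylcholine receptor list, in which 12 of 32 genes were higher, 4 lower and 16 did not pass (median 0.24). This excess of higher genes rests on the scaling, since 7 were higher and 5 lower after quantile normalization, and 7 and 7 with median centring. Htr5b was 1.93 higher (SE 0.26), at 10.20 to 11.04 in hippocampus and 7.54 to 9.54 in cortex. Htr1a (0.96), the inhibitory autoreceptor and pyramidal cell receptor, and Htr4 (0.89) were also higher, while Htr2a (-1.04), a receptor of cortical pyramidal cells, was lower. Drd5 was 1.16 higher and Drd1 was lower (-0.92, by 1 of 3 probe sets), both dopamine receptors of the same class. The adrenergic receptors Adrb1 (-1.75) and Adra1b (-1.04) were lower.

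Of 28 potassium channel genes 6 were higher and 8 lower (median 0.08), the share of higher genes being near that of all genes. The counts were 4 and 9 of 27 measured after quantile normalization and 3 and 9 with median centring. After Kcns1, the largest fall was that of Kcnh1, an ether-a-go-go channel (-1.34, SE 0.15). The channel Kcnj10 of astrocytes (1.28, SE 0.27) and the accessory subunit Kcnab1 (1.25, SE 0.16) were higher, and Kcnab1 did not overlap, at 11.41 to 11.82 in hippocampus and 9.49 to 10.80 in cortex. The calcium channel subunit Cacna2d1, the target of gabapentin, was lower (-1.08, SE 0.09).

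Interneuron genes were mostly lower in hippocampus: of 12 measured, 8 were lower, 1 higher and 3 did not pass (median -0.56), with 7 lower under quantile normalization and 9 with median centring. Pvalb, the calcium buffer of fast-spiking cells, ran from 10.72 over 11.31 to 11.60 in hippocampus and from 12.41 over 12.65 to 12.96 in cortex (difference -1.38, SE 0.10). The peptides Vip (-1.19, SE 0.12), Penk (-1.09, SE 0.24), Cck (-1.05) and Npy (-0.79) were lower too, and Sst less so (-0.30). The exception was Calb2, calretinin, at 1.33 (SE 0.11). Of the enzymes that make GABA, Gad2 was higher (0.67) while Gad1 (-0.08) did not pass.

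Respiratory chain and ATP synthase genes stood lower in hippocampus for 15 of 21 genes, and the other 6 did not pass. Their median was -0.37 beside 0.12 for all genes, and 14 were lower under quantile normalization and 18 with median centring. Behind Cox6a2 came Ndufv2 of complex I (-0.65, SE 0.11), Atp5po of the ATP synthase stalk (-0.61, SE 0.08) and Cox6a1 (-0.56, SE 0.06). Cox6a1 lay at 15.28 to 15.70 in hippocampus and 15.85 to 16.26 in cortex. In 9 of the 21 the groups did not overlap, all lower, where 3.09% of all probe sets were apart in that direction.

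Of 32 calcium and kinase signalling genes 15 were lower and 9 higher (median -0.14). After quantile normalization 14 were lower and 6 higher, and with median centring 19 and 5. The lower ones beside Camk2n1 included the kinases Camk2g (-1.04, SE 0.09) and Camk1 (-0.95, SE 0.12) and the calmodulin-binding neurogranin Nrgn (-0.88). The kinase subunits Camk2a (-0.12) and Camk2b (-0.17) did not pass. Hpca, hippocalcin, was 0.55 higher.

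Synaptic vesicle and scaffold genes had 14 of 39 lower and 5 higher (median -0.12), with 13 lower and 4 higher after quantile normalization and 18 and 2 with median centring. They were led by Stx1a, a SNARE protein (-1.14, SE 0.07), with 13.43 to 14.04 in hippocampus and 14.81 to 15.09 in cortex. The G protein regulators split. Rgs4 was lower (-1.57, SE 0.17) while Rgs14, known from area CA2, was higher at 1.21 (SE 0.12), with 12.19 to 12.89 in hippocampus and 10.65 to 11.71 in cortex.

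Genes of axon guidance, adhesion and matrix were higher in 18 of 36 cases and lower in 3 (median 0.42). After quantile normalization 11 were higher and 3 lower, where 13.4% of all genes were higher, and with median centring 9 and 5, where 9.38% were. Nrp1, a receptor for semaphorins, ran from 11.24 over 11.59 to 11.94 in hippocampus and from 9.86 over 10.31 to 10.65 in cortex (difference 1.32, SE 0.10). Robo1, the Slit receptor, was 1.17 higher (SE 0.27), while Efna5, an ephrin that repels axons, was lower (-1.40, SE 0.18) and at the floor on 8 of 9 hippocampal arrays. Growth factor receptors Fgfr1 (1.30, SE 0.11) and Fgfr2 (1.37, SE 0.25) were higher, by 2 of 3 and 3 of 4 probe sets. Fst, the activin antagonist follistatin, was lower (-1.41, SE 0.20). Among regional transcription factors the cortical upper-layer factor Cux1 was lower (-1.19, SE 0.11) and the POU factors Pou3f1 (0.88) and Pou3f2 (-0.80) went opposite ways.

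**Figure D3:**
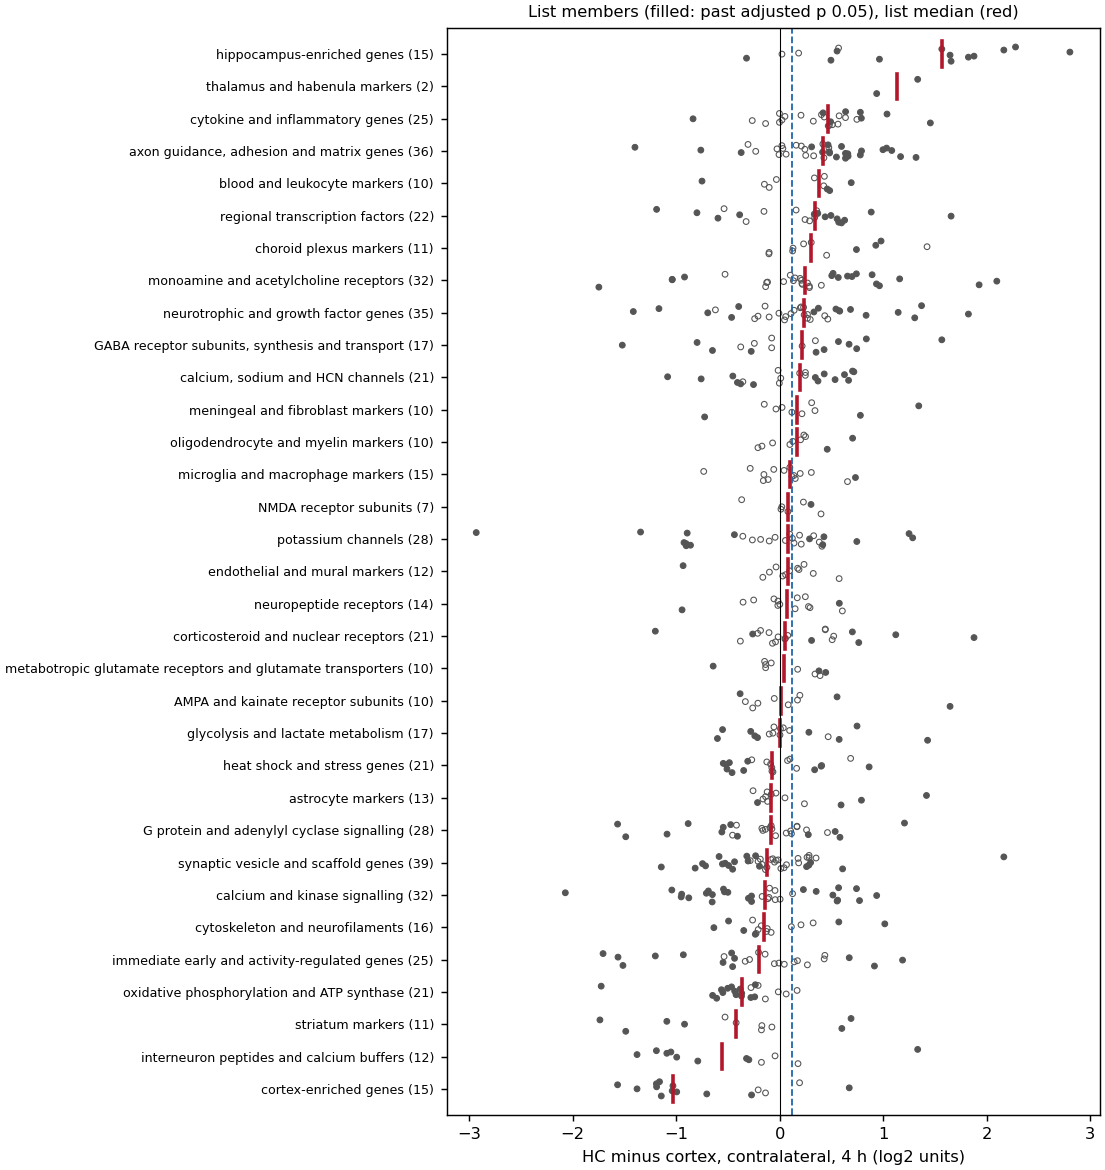
Points are genes of each list, given by the brightest probe set, at hippocampus minus cortex in log2 units, filled where the limma adjusted p is under 0.05, and the number of genes stands in parentheses. Red bars are list medians, from 1.57 for hippocampus-enriched genes to -1.03 for cortex-enriched genes, and the dashed line is the median of all genes at 0.12.

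Of 13 astrocyte markers 3 were higher, 1 was lower and 9 did not pass, with a median of -0.08, below that of all genes. The share of higher genes was close to that of all genes, and the balance turned with the scaling: 5 were higher and 8 did not pass after quantile normalization, while 3 were higher and 6 lower with median centring. The higher ones were the water channel Aqp4 (1.42, SE 0.18), with no overlap between 11.58 to 12.81 in hippocampus and 9.85 to 11.54 in cortex, the gap junction gene Gja1 (0.79, SE 0.12) and the intermediate filament gene Nes (0.59, SE 0.14, by 1 of 2 probe sets). The lower one was the glycolytic enzyme Aldoc (-0.21), and Glul (-0.16), Apoe (-0.12) and Vim (-0.26) did not pass. Of 10 myelin genes 2 were higher, the gap junction gene Gjb1 (0.70) and the transcription factor Sox10 (0.46), and the other 8, Mbp (-0.17) among them, did not pass (median 0.16). Sox10 lost its call after quantile normalization (limma adjusted p = 0.113) and with median centring (limma adjusted p = 0.26). Of 15 microglial genes 1 was higher (median 0.10), Ptprc at 0.73, and it passed in neither of these scalings (limma adjusted p = 0.127 and 0.0864), with 1 of its 2 probe sets called. Of 12 endothelial and mural genes 1 was lower (median 0.08), Kdr at -0.93, the receptor of vascular endothelial growth factor.

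Markers of neighbouring tissue varied within both groups. Ttr, made in the choroid plexus, was between 15.14 and 16.32 on hippocampal arrays 25, 26, 28, 29 and 32 and between 10.30 and 11.48 on arrays 23, 27, 30 and 31. In cortex it was 15.60, 15.22 and 13.70 on arrays 9, 13 and 16 and between 10.21 and 11.34 on the others. Its difference of 1.42 (SE 1.12) did not pass (limma adjusted p = 0.347). Of 11 choroid plexus markers 3 were higher (Mc3r 0.98, Prlr 0.93, Cp 0.74) and 8 did not pass (median 0.30), a share near that of all genes. Only Mc3r held after quantile normalization, where the limma adjusted p was 0.0588 for Prlr and 0.144 for Cp, and Cp lost its call under 21 of 29 alternatives. The markers' summed signal ran from 14360 to 112787 in hippocampus and from 17004 to 72407 in cortex. Htr2c, a serotonin receptor also made in choroid plexus, was 2.10 higher (SE 0.24). It was 9.96, 10.50, 10.50 and 10.11 on the 4 hippocampal arrays with low Ttr and between 10.14 and 10.72 on the others. Among the cortical arrays with high Ttr it was at the floor of 7.54 on 9 and 13 and at 8.72 on 16. On the other cortical arrays it lay between 7.54 and 9.16. The part of choroid plexus in the Htr2c difference was not tested.

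Hippocampal array 32 stood apart for genes also known from thalamus. Calb2 was 12.96 there against 11.81 to 12.32 on the other 8 arrays, and Prkcd, a protein kinase C isoform, 12.76 against 10.47 to 11.94. Both, the only thalamic markers of 9 listed that were measured, were higher in hippocampus (Prkcd by 0.94, SE 0.20), and without array 32 the differences were 1.23 and 0.74. Among the named genes that were lower in the group, the same array was the highest hippocampal one for Tnnc2, Penk, Gabrd, Stx1a, Ina, Pcp4 and Plcb4. For others of these genes it was the lowest, among them Arpp21 (10.185), Pvalb (10.72), Grm3 (12.54), Pou3f2 (8.40) and Olr59 (at the floor). Pcp4 was 14.14 there, inside the cortical range of 13.82 to 14.44, and Plcb4 10.93, inside 10.44 to 11.08, on the probe set that passed of its 2. Without it Pcp4 differed by -1.07 and Plcb4 by -1.24, against -0.95 and -1.09 with all arrays. Striatal markers were lower in 4 of 11 cases (median -0.42) and higher in 2, with 5 lower after quantile normalization and 8 with median centring. Among the lower ones were Rgs9 (-1.49, SE 0.38) and, by 1 of 3 probe sets, Drd1 (-0.92, SE 0.22). On the ipsilateral side Rgs9 (-0.12) and Drd1 (-0.20) did not pass, while Arpp21 (-1.18), also on this list, did. The part of neighbouring tissue in these and the other differences was not tested.

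**Figure D4:**
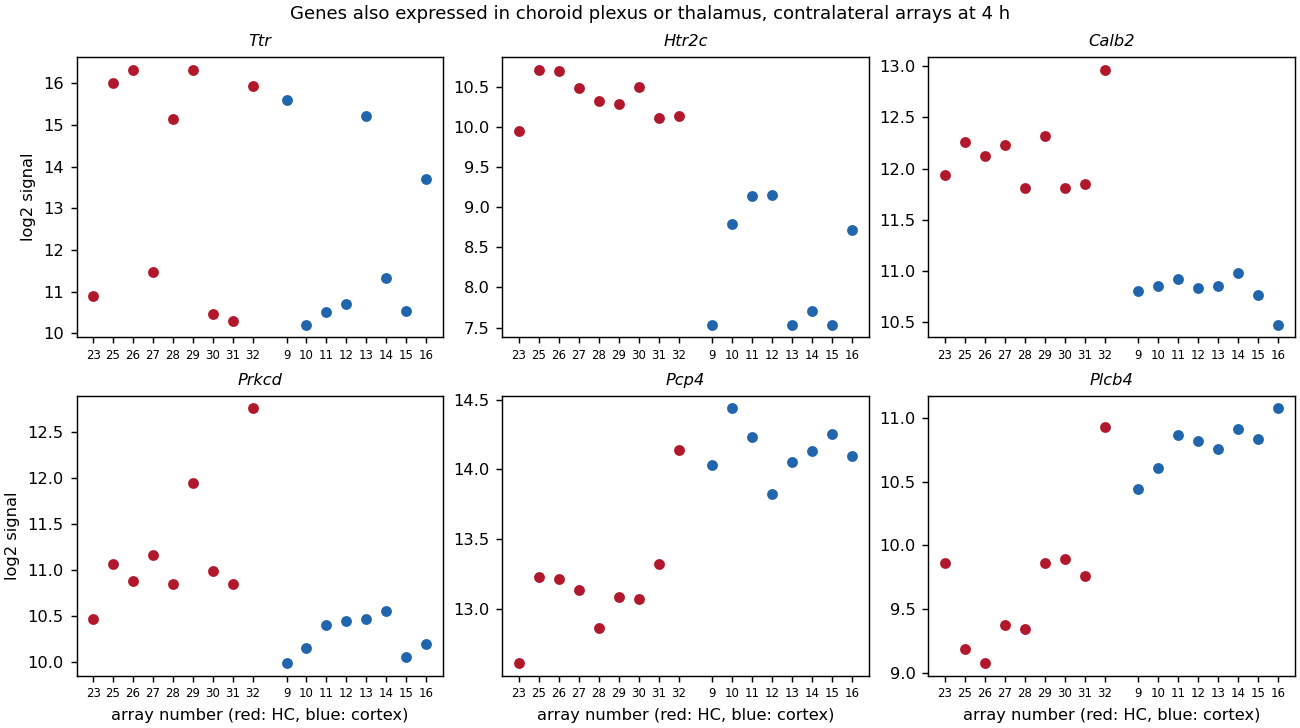
Log2 signal of 6 genes on each contralateral array at 4 h, hippocampus in red on the left and cortex in blue on the right, with array numbers on the x axis. Ttr is above 13 on 5 hippocampal and 3 cortical arrays, while Htr2c is higher on every hippocampal array than on any cortical one, and array 32 is highest for Calb2, Prkcd and, within hippocampus, Pcp4 and Plcb4.

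The same regional difference was measured on the 7 ipsilateral hippocampal and 7 ipsilateral cortical arrays, none of which enter the contralateral comparison. These arrays may still come from the same animals, which the labels do not tell. There 2065 probe sets passed, 27.5% of those tested (16.7% higher, 10.8% lower), 268 of them by at least 2-fold (3.57%), and the 2 groups did not overlap for 8.1%. In all, 1208 passed in both comparisons with the same direction, which is 47.7% of the contralateral and 58.5% of the ipsilateral calls. Only 26 passed in opposite directions. Of the 278 contralateral differences of at least 2-fold, 192 also passed on the ipsilateral side in the same direction. The count was 106 of 120 among probe sets brighter than the median of those tested and 86 of 158 among the dimmer ones. Kcns1 (-2.95), Camk2n1 (-1.89), Gria1 (1.85), Gabra5 (1.58) and Gabrd (-1.51) kept their direction there and passed.

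Whether the regional difference itself differed between the sides was tested as an interaction, and 314 probe sets passed (4.18%), 233 of them more positive on the contralateral side (3.11%) and 81 more negative (1.08%), 138 by at least 2-fold (1.84%). This count fell to 1 with each array's 10th percentile of signal in the model and to 64 when only the compared arrays were fitted. It was 1158 without cortical arrays 12, 13 and 14, which had the highest 10th percentiles of their group (an alternative chosen after seeing the data). Foxe3, a forkhead factor gene, was 9.65 to 10.62 in contralateral hippocampus and 7.54 to 9.77 in cortex (difference 1.85, SE 0.30), but -0.47 on the ipsilateral side (interaction 2.32, SE 0.45, limma adjusted p = 0.00438). Eif4ebp1, a translation repressor, differed by 1.73 (SE 0.30) and by -0.11 ipsilaterally (interaction 1.84, limma adjusted p = 0.0172), and only 1 of its 3 probe sets passed contralaterally. That probe set had 10.96 to 12.35 in contralateral hippocampus and 11.39 to 12.19 in contralateral cortex at 24 h. Foxe3 had 8.78 to 10.16 in contralateral cortex at 24 h. Pvalb was lower on both sides, but more so contralaterally (-1.38 and -0.86, interaction -0.52, limma adjusted p = 0.0413).

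**Figure D5:**
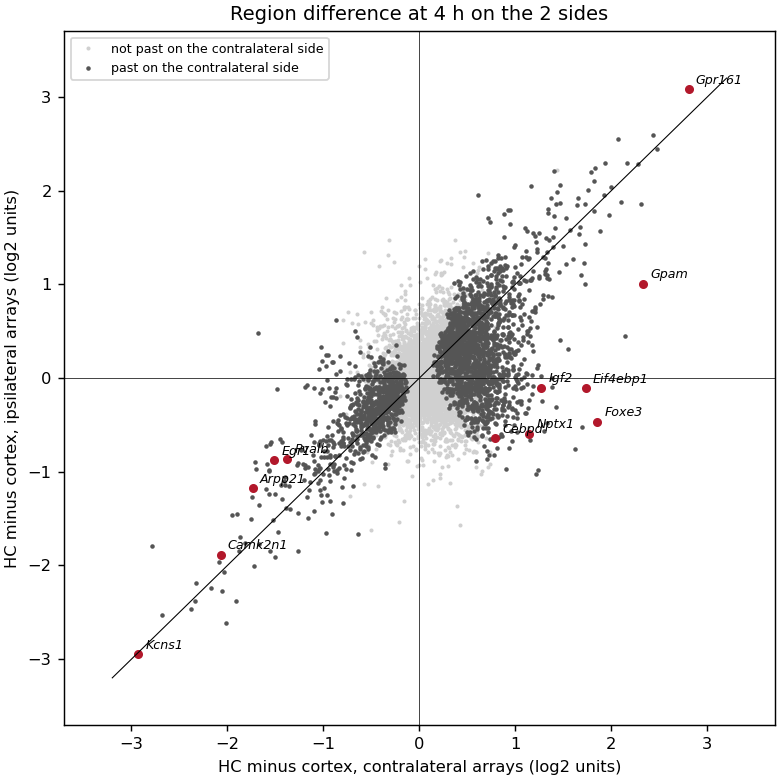
Each point is a probe set, with hippocampus minus cortex on the contralateral arrays on the x axis and on the ipsilateral arrays on the y axis, in log2 units, and the diagonal marks equal differences. Gpr161, Kcns1 and Camk2n1 lie near the diagonal, while Foxe3 (1.85 and -0.47) and Eif4ebp1 (1.73 and -0.11) lie far below it.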

How the data were processed

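RNA of 47 samples was measured on 1-colour arrays. Deposited was 1 linear intensity per probe set and array; how the authors summarised probes and to what target they scaled is not given in the sources read. The 2%-trimmed means of the arrays lay near 2503, so the values were kept. Signals under the 25th percentile of all values (185.8) were set to that value before taking log2. Probe sets above this floor on at least 7 arrays, without 59 controls, were tested (7503). Gene symbols came from the platform annotation: 7018 probe sets name 1 gene, 308 several and 1473 none. The annotation is old, and the number of arrays limits the precision.

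All 47 arrays entered 1 limma (3.58.1, R 4.3.3) fit of 6 group means with an intensity trend, so the groups share 1 estimate of the spread, with two-sided moderated tests adjusted by Benjamini-Hochberg over all 7503 in each of 3 comparisons (contralateral, ipsilateral, their difference). In counts over lists a gene is its brightest probe set; a gene given with an SE is the brightest probe set past the threshold. Named genes were the 12 largest rises and falls, up to 4 passing members of each of 33 lists, and up to 6 for the interaction; other list members are given as values. Members and lists were chosen with earlier results of these data known. The procedure was tested on simulated data. Array quality used exact permutation tests. Alternatives varied the floor, filter, scaling, model and arrays.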

Additional observations from a re-analysis of the deposited data

Results flagged for a closer look

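For 27 of 258 groups of 8 or 9 arrays of named probe sets, 1 array lay far from the rest by Dixon's rule. For normally spread values without a floor about 1 in 20, or 12.9, would be flagged. Here, 1 array above the floor is always flagged where the rest sit at it, so the 2 counts measure no excess. Hippocampal array 32 accounts for 7 of the 27. It was the highest for Calb2 (12.96), Gabrd (11.78), Pcp4 (14.14) and Plcb4 (10.93) and the lowest for Dcn (9.19), Grm3 (12.54) and Pou3f2 (8.40). Without it the differences of Calb2, Gabrd, Pcp4 and Plcb4 were 1.23, -1.59, -1.07 and -1.24, all still past the threshold.

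Other hippocampal arrays stood apart for 1 gene each or, for arrays 23 and 27, for 2. Array 27 was lowest for Nnat (15.32) and Nr2f2 (8.52), array 28 highest for Nr3c2 (11.80) and array 31 lowest for Mc3r (9.72). Array 23 was lowest for Cngb1 (8.0) and was the only one above the floor for Kcns1 (7.84), as were array 26 for Stard8 (8.08) and array 25 for Efna5 (8.10).

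In cortex, array 10 was lowest for Grin3a (7.54), Cx3cl1 (15.31) and Cox6a1 (15.85), and array 11 was lowest for Rgs9 (7.54) and Kcnh1 (11.14) and highest for Pfkp (14.70). Array 12 was lowest for Efna5 (8.10) and Cdh22 (9.68), array 15 for Penk (10.58) and array 16 for Calb2 (10.48). Array 13 was highest for Nptx1 (8.95) and array 14 for the unnamed probe set U33541cds_at (9.42).

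For 19 named probe sets the regional difference itself differed between the sides (limma interaction, adjusted p under 0.05), given here as the contralateral minus the ipsilateral difference in log2 units. It was positive for U33541cds_at (2.38), Foxe3 (2.32), Cngb1 (2.22), Eif4ebp1 (1.84), Nptx1 (1.74), Cebpd (1.43), Igf2 (1.37), Hspb1 (1.18) and Lck (1.17). Smaller positive values were those of Ssr4 (0.98), Arrdc1 (0.95), Nes (0.87), Slc1a2 (0.84) and the unnamed rc_AI231807_at (0.46). It was negative for Homer1 (probe set AF093268_s_at, -1.09), Dlg1 (-0.91), Grin2c (-0.84), Arpp21 (-0.56) and Pvalb (-0.52). Arpp21 had a second probe set, which was -0.36 contralaterally and -0.92 ipsilaterally. In the same order, Dlg1 had 0.21 and -0.59 on its dimmest probe set and -0.29 and -0.15 on its brightest. Nptx1 had 0.18 and 0.83 on its brightest. The brightest of Igf2 (0.23 and 0.27), Slc1a2 (-0.08 and -0.12) and Grin2c (0.08 and -0.21) differed less between the sides than the named one. The next brightest of Cebpd (0.85 and -0.01) and Hspb1 (0.66 and -0.33) kept the direction. With each array's 10th percentile of signal in the model, 1 probe set in all passed the interaction test.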

How the results depend on the processing

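The contralateral count of 2530 ran from 2041 under quantile normalization to 2866 without cortical arrays 12, 13 and 14, a setting chosen after seeing the data. Leaving out 1 array gave 2270 (without cortical array 15) to 2650 (without cortical array 14), and the ipsilateral count 1859 to 2098. A further limit of 2-fold left 278 contralateral, 268 ipsilateral and 138 interaction calls. The interaction count of 314 was 64 when the compared groups were fitted alone, 1 with each array's 10th percentile of signal in the model, 1158 without cortical arrays 12, 13 and 14, and 135 (without ipsilateral cortical array 5) to 508 (without contralateral cortical array 14) with 1 array left out. The cause was not tested. The share of higher ipsilateral calls was 60.6%, and 53.0% under quantile normalization and 35.6% with median centring.

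Of 123 named probe sets, 101 kept their contralateral direction and call under each alternative that tested them. Sncg, 1 of these, was filtered out and not tested where a level above the floor on at least 24 arrays was required. Of the rest, 21 lost the call under at least 1, and Cst3 (-0.26) turned to 0.00088 under quantile normalization. Cp lost its call under 21 of 29 alternatives, Grin2d under 17, Gria4 under 16 and Acta2 under 14. Levels near the floor limit what dim genes can show. No paired analysis was made. The labels give extraction numbers, each of which occurs once, and name no animals, so any pairing of arrays by animal was ignored.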
